A study of Mus musculus with 19 samples.

Results

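The chemokine system of mouse skin was examined through 59 genes, which are all protein-coding genes of the deposited table whose symbol begins with Ccl, Cxcl, Xcl, Ccr, Cxcr, Xcr or Ackr followed by a digit. They are 59 of the 50686 genes listed. Of these, 37 encode ligands (24 of the CC, 12 of the CXC and 1 of the XC class) and 22 encode receptors (11 CC, 6 CXC, 1 XC and 4 atypical receptors). Cx3cl1, the target of the antibody under study, and its receptor Cx3cr1 were not included. A level of at least 1 TPM (a level per transcript length, relative to all transcripts of the library) in 3 or more mice was reached by 49 of them, 31 ligands and 18 receptors, and these were tested.

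The study asked how a neutralizing antibody against CX3CL1 (anti-CX3CL1 mAb, clone 5H8-4) acts in the sclerodermatous form of chronic graft-versus-host disease (cGVHD, here Scl-cGVHD), a model of skin and lung fibrosis. Donors and recipients were 8 to 12 weeks old. Irradiated female BALB/c recipients received T cell-depleted bone marrow and splenocytes of male B10.D2 mice, which share the major histocompatibility haplotype and differ at minor loci, or of male BALB/c mice in the syngeneic group. All mice had therefore been irradiated and transplanted. Skin was taken 42 days after bone marrow transplantation (BMT), following intraperitoneal injections from day 7 to day 35. The syngeneic mice received control IgG, an antibody against DNP (ID_1527, ID_1528 and ID_1529, n = 3), or the mAb (ID_1530 to ID_1534, n = 5), whose dose in these mice is not in the labels. The Scl-cGVHD mice received control IgG (ID_1535, ID_1537 and ID_1538, n = 3), the mAb at 0.5 mg per head (ID_1539, ID_1540 and ID_1541, n = 3) or at 1 mg per head (ID_1542 to ID_1546, n = 5). Values below follow that order of mice. Each mouse gave 1 library, and the transplanted cells of Scl-cGVHD skin carry alleles of another strain than the recipient.

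Chemokines are small secreted proteins that guide leukocytes along gradients held on the surface of endothelium and matrix. Their classes are named after the spacing of the first cysteines of the mature protein (CC, CXC, XC), and they act on G protein-coupled receptors on the migrating cell. The atypical receptors bind chemokines without G protein signalling and take them up or carry them across cells, and so shape the gradients. In skin, keratinocytes, fibroblasts, endothelium and resident myeloid cells all make chemokines, and many of the ligand genes lie in clusters: 14 of the 59 genes are on chromosome 11, 13 (mostly receptors) on chromosome 9 and 10 on chromosome 5.

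Some facts of the libraries touch the results below. Uniquely mapped read pairs numbered 20325491 to 35005382 per library (median 26198028). Markers of differentiating and basal keratinocytes were present in every library, with sums of 7630 to 31544 TPM over 8 genes. Mouse ID_1537 (Scl-cGVHD, IgG) had the highest level of all 19 mice in 17 of the 49 tested genes. How often this mouse was highest over all tested genes was not counted. A list of 15 neutrophil markers summed to 38233 TPM in that mouse, against 1076 and 4700 TPM in the other Scl-cGVHD IgG mice, 57.7 to 3943 TPM at 0.5 mg, 134 to 6564 TPM at 1 mg and 68.4 to 112 TPM in all syngeneic mice. The list includes S100a8, S100a9 and Lcn2, which are not restricted to neutrophils. A plain sum follows its most abundant genes, so it is not a measure of neutrophils alone. Mouse ID_1540 (0.5 mg) had a neutrophil sum of 57.7 TPM and lay within or below the syngeneic range in 11 of the 20 genes that were higher in Scl-cGVHD. The syngeneic mAb mice ID_1533 and ID_1534 had hair keratin sums of 20916 and 13478 TPM, against at most 2623 TPM elsewhere. In bulk skin, more cells of a type and more RNA per cell cannot be told apart.

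Under control IgG, most chemokine genes that moved had higher levels in the skin of Scl-cGVHD mice. In the limma fit over all 16350 tested genes, 20 of the 49 were higher and 5 lower at an adjusted p under 0.05, and 24 did not pass. Over all tested genes the shares were 6.84% higher and 17.9% lower. Without the Scl-cGVHD mice, Ccl3, Ccr6, Ccr7, Ccr8, Ccr9, Cxcl2, Cxcl3, Cxcl5 and Cxcr2 would not have reached 1 TPM in 3 mice. Of these, Ccl3, Cxcl3 and Cxcr2 were among the 20 higher genes. The count of 20 of 49 thus rests in part on genes that the filter kept through the group in which they were high. The median log2 fold change was 0.75 over the 49 genes and -0.33 over all tested genes, on the log2(TPM + 1) scale that is used for every fold change below. Among the ligands 14 of 31 were higher and 2 lower, and among the receptors 6 of 18 were higher and 3 lower. Summed over the 37 ligands, the level was 2707 ± 126 TPM (SD, n = 3) in syngeneic IgG skin and 10854 ± 4115 TPM (n = 3) in Scl-cGVHD IgG skin. The sum of the 22 receptors was 160.3 ± 11.2 and 225 ± 123 TPM, respectively. In 24 genes the 3 Scl-cGVHD mice all lay above the 3 syngeneic mice, and in 10 genes below them. Such separation occurred in 10.4% of all tested genes upward and in 41% downward, so that 10 of 49 downward was a smaller share than among all genes.

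**Figure D1:**
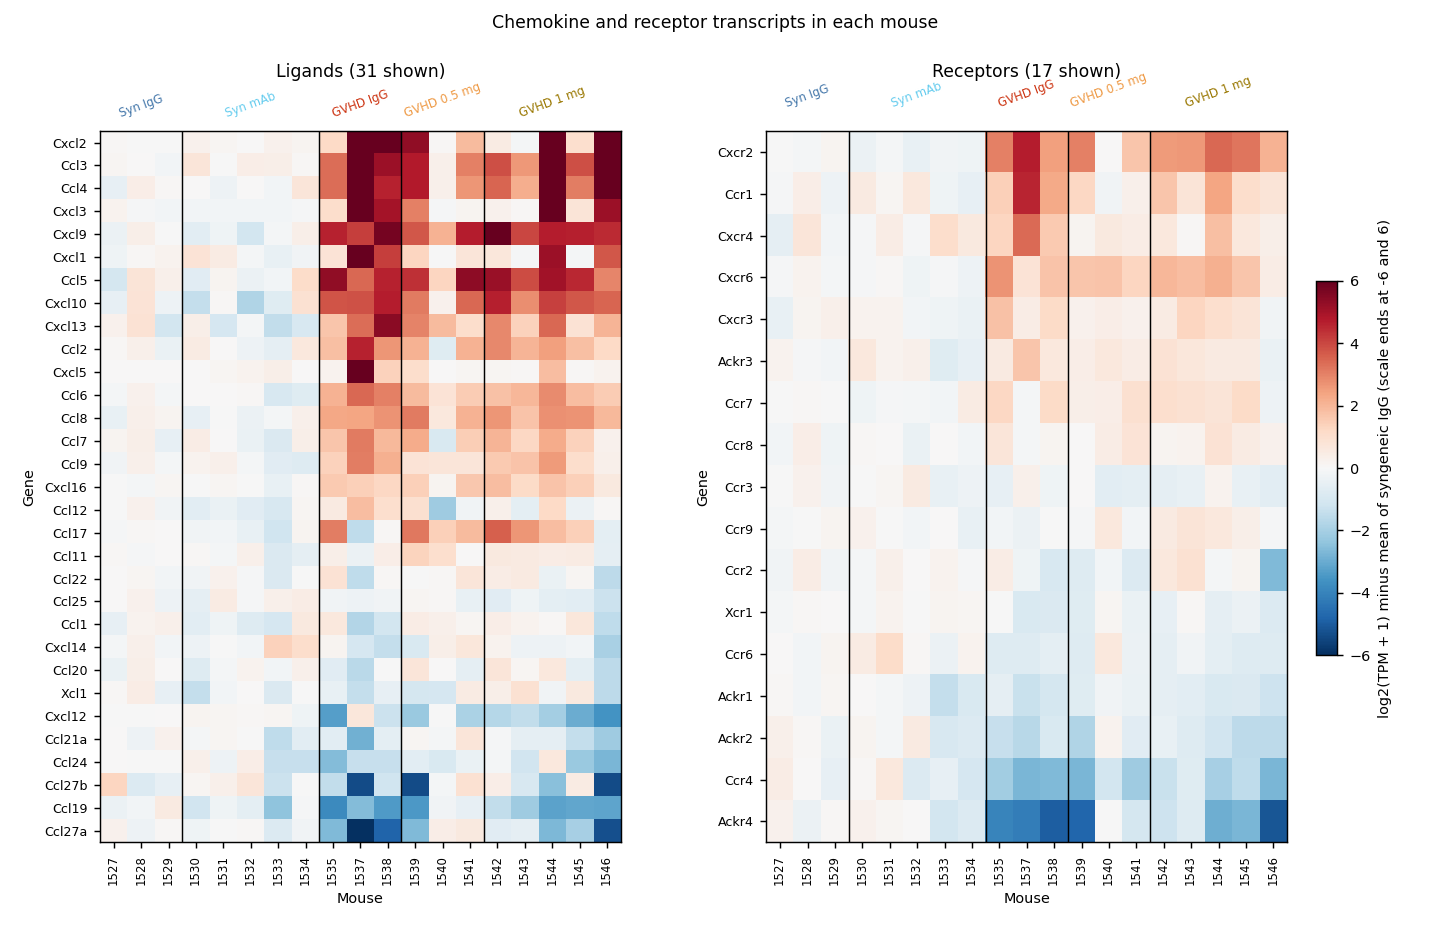
Levels of 31 ligands (left) and 17 receptors (right) in each of 19 mice, as log2(TPM + 1) minus the mean of the syngeneic IgG mice; columns are mice ordered by group, rows are genes ordered by the log2 fold change of Scl-cGVHD IgG against syngeneic IgG, and the colour scale ends at -6 and 6. Red fills the upper rows in Scl-cGVHD mice, most densely in ID_1537 and least in ID_1540.

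The ligands of CXCR3 and the receptor itself were higher in Scl-cGVHD skin. Cxcl9 (ENSMUSG00000029417, chr5:92321347-92328079, GRCm38) and Cxcl10 (chr5:92346638-92348889) encode interferon-induced chemokines that attract activated T cells and natural killer cells bearing CXCR3. Cxcl9 was at 4.21, 7.62 and 5.55 TPM in the syngeneic IgG mice and 160.2, 117 and 352 TPM in the Scl-cGVHD IgG mice (log2 fold change 4.82, SE 0.59, adjusted p = 0.000165), the smallest p of the 49 genes. Under the mAb it was at 3.28, 4.62, 2.15, 5.2 and 7.54 TPM in syngeneic mice, 85.7, 27.7 and 176 TPM at 0.5 mg and 442, 106, 175, 168 and 146 TPM at 1 mg. Every one of the 11 Scl-cGVHD mice therefore lay above all 8 syngeneic mice, with ID_1540 lowest at 27.7 TPM. Cxcl10 stood at 3.97, 11.3 and 4.55 TPM in syngeneic IgG and 95.3, 97.3 and 179.6 TPM in Scl-cGVHD IgG skin (log2 fold change 4.10, SE 0.77, adjusted p = 0.00263). With the mAb its levels were 1.6, 6.37, 1.01, 3.19 and 12.3 TPM in syngeneic skin, 58.9, 7.21 and 76 TPM at 0.5 mg and 177, 47, 117, 90.5 and 77.1 TPM at 1 mg. Only ID_1540, at 7.21 TPM, fell into the syngeneic range. Cxcr3 (chrX:101731535-101734269), the receptor of both, was far less abundant, at 0.78, 1.7 and 1.96 TPM in syngeneic IgG and 7.07, 2.34 and 4.43 TPM in Scl-cGVHD IgG mice (log2 fold change 1.12, SE 0.36, adjusted p = 0.0307), and at 1.85, 1.82, 1.17, 1.05 and 0.81 TPM in syngeneic mAb mice, 1.93, 2.22 and 1.86 TPM at 0.5 mg and 2.42, 4.98, 3.86, 3.19 and 1.09 TPM at 1 mg. Its call did not hold without ID_1527, ID_1528, ID_1535 or ID_1538 (adjusted p = 0.0605 to 0.129, limma). Of a list of 11 T cell markers, 6 were higher under IgG and 7 under the mAb (6.84% and 7.99% of all tested genes). Their sum was 107 to 120 TPM in syngeneic IgG and 87.1 to 350 TPM in Scl-cGVHD IgG mice. The lowest sum was in ID_1537, below every syngeneic IgG mouse, although Cxcl9 and Cxcl10 were high there. The part of that list in the result was not tested.

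The promoter of Cxcl10 is shown because it is the only one, among the 14 matched promoters of genes that were higher in Scl-cGVHD under IgG, with a motif like an interferon-stimulated response element (ISRE). The searched letters were GAAA, any 2 bases, then GAAA, on both strands, and 3.49% of 27025 RefSeq promoters of the same window (250 bases before to 50 after the start) hold them. Among all 44 promoters matched, those of Ccl19, which was lower in Scl-cGVHD, and Cxcl14, which was not called, hold them too. The 250 bases before the start of Cxcl10 are chr5:92348890-92349139, minus strand, GRCm38.p6, from RefSeq, with the match in capitals.
Cxcl10: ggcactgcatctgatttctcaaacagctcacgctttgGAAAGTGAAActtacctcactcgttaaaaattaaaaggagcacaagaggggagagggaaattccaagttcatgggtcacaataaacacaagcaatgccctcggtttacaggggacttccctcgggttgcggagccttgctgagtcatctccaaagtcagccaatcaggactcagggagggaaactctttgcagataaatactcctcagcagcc
Other letters, a GAS-like motif (TTCNNNGAA, in 8.47% of promoters) and an AP-1-like motif (TGANTCA, in 7.94%), were found in 0 and 3 of the 14 promoters available for the 20 higher genes. The AP-1-like matches were in Ccl9, Cxcl9 and Cxcl10. A match is a description of letters only.

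Ccl5 and its receptor Ccr1 rose under IgG, and its receptor Ccr3 did not pass. CCL5, made by T cells and many other cells, binds CCR1 and CCR3 among others. Ccl5 (chr11:83525778-83530518) was at 3.06, 13.3 and 9.27 TPM in syngeneic IgG and 339, 89.5 and 204 TPM in Scl-cGVHD IgG skin (log2 fold change 4.45, SE 0.86, adjusted p = 0.0031). In mAb-treated mice it was at 4.25, 8.42, 5.67, 6.52 and 17.4 TPM (syngeneic), 173, 19.6 and 346 TPM (0.5 mg) and 299.9, 124, 279.6, 194 and 63.6 TPM (1 mg). All 11 Scl-cGVHD mice were above all syngeneic mice, although ID_1540 at 19.6 TPM was close to the highest syngeneic mouse at 17.4 TPM. Ccl3 (chr11:83647844-83649355) and Ccl4 (chr11:83662584-83664683), neighbours that encode macrophage inflammatory proteins, were low in syngeneic skin. Ccl3 was at 0.67, 0.6 and 0.4 TPM in syngeneic IgG and 14.9, 851 and 52.6 TPM in Scl-cGVHD IgG mice (log2 fold change 5.86, SE 1.33, adjusted p = 0.00687). The log2 fold change was 4.23 without ID_1537 (adjusted p = 0.0313, limma) and 7.11 without ID_1535. At 0.5 mg it was at 41.3, 0.94 and 11.4 TPM, at 1 mg at 21.4, 8.46, 192, 21.3 and 152 TPM and in syngeneic mAb mice at 1.54, 0.51, 1.02, 0.95 and 0.61 TPM. For Ccl4 the log2 fold change under IgG was 5.52 (SE 1.35, adjusted p = 0.00991), with 0.41, 1.62 and 1.11 TPM in syngeneic IgG and 19.1, 769 and 47.4 TPM in Scl-cGVHD IgG mice. That call was just lost without ID_1537 (log2 fold change 3.98, adjusted p = 0.0506, limma), and the change was 6.61 without ID_1535.

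Cxcl16 and Cxcr6 were higher in every Scl-cGVHD mouse. CXCL16 is anchored in the membrane of antigen-presenting cells, keratinocytes and endothelium, and CXCR6 marks tissue-resident T cells. Cxcl16 (chr11:70453983-70459984) was at 38.3, 35.6 and 41.7 TPM in syngeneic IgG and 116, 105 and 91 TPM in Scl-cGVHD IgG skin (log2 fold change 1.40, SE 0.33, adjusted p = 0.00724). The mAb groups were at 37.7, 41.7, 37.9, 27.9 and 40.9 TPM in syngeneic mice, 107, 43.8 and 119 TPM at 0.5 mg and 143, 87.1, 127, 105 and 57.9 TPM at 1 mg. Cxcr6 (chr9:123806475-123811760) was at 1.6, 2.2 and 1.5 TPM in syngeneic IgG and 16.6, 3.89 and 7.89 TPM in Scl-cGVHD IgG mice (log2 fold change 1.73, SE 0.41, adjusted p = 0.00762), and at 1.6, 1.91, 1.33, 1.58 and 1.21 TPM in syngeneic mAb mice, 7.71, 7.97 and 5.69 TPM at 0.5 mg and 10.1, 8.96, 10.9, 7.64 and 2.75 TPM at 1 mg. For both genes the 11 Scl-cGVHD mice lay above the 8 syngeneic mice without overlap.

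All 5 listed ligands of CCR1 (Ccl3, Ccl5, Ccl6, Ccl7 and Ccl9) and the receptor itself were higher under IgG. Ccl6 (chr11:83587882-83593087) and Ccl9 (chr11:83572919-83578636) are chemokines of rodent myeloid cells that bind CCR1. Ccl6 was at 159, 209.6 and 158 TPM in syngeneic IgG and 749, 1909 and 1422 TPM in Scl-cGVHD IgG mice (log2 fold change 2.86, SE 0.38, adjusted p = 0.0003). With the mAb it was at 175, 177, 184, 89.5 and 103 TPM in syngeneic skin, 648, 304 and 504 TPM at 0.5 mg and 595, 692, 1249, 628 and 508 TPM at 1 mg. The 0.5 mg mice thus all lay between the syngeneic mice and the Scl-cGVHD IgG mice. Ccl9 rose from 54.3, 78.7 and 57.2 TPM to 166, 541 and 282 TPM under IgG (log2 fold change 2.21, SE 0.46, adjusted p = 0.00418), and was at 71.5, 77.7, 58.4, 38.3 and 36.7 TPM (syngeneic mAb), 111, 104 and 104 TPM (0.5 mg) and 188, 207, 370.1, 132 and 78 TPM (1 mg). Ccr1 (chr9:123962124-123968692), the receptor on monocytes and neutrophils, was at 3.33, 4.98 and 2.71 TPM in syngeneic IgG and 11.5, 108 and 21.3 TPM in Scl-cGVHD IgG mice (log2 fold change 2.77, SE 0.62, adjusted p = 0.00575). Here ID_1537 stood apart from the other mice, while the call remained without it at a log2 fold change of 1.86 (adjusted p = 0.022, limma). It was 3.43 without ID_1535. Under the mAb, Ccr1 was at 5.66, 3.9, 6.09, 2.88 and 2.29 TPM in syngeneic, 9.66, 2.95 and 4.6 TPM in 0.5 mg and 13.6, 6.73, 22.6, 8.58 and 6.94 TPM in 1 mg mice. At 0.5 mg, ID_1540 and ID_1541 were within the syngeneic range.

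Ccl8, Ccl2 and Ccl7, attractants of monocytes and other leukocytes, rose under IgG, whereas Ccl12 and the receptor Ccr2 did not pass. Ccl8 (chr11:82115185-82116799), whose product binds CCR8 in the mouse, was the most abundant of the 59 transcripts in each group by mean. It was at 668, 1097 and 1001 TPM in syngeneic IgG and 4490.2, 4727 and 5765 TPM in Scl-cGVHD IgG skin (log2 fold change 2.46, SE 0.45, adjusted p = 0.00196). The mAb groups held 632, 889.6, 712, 832 and 1129 TPM in syngeneic mice, 7888, 1387 and 3855 TPM at 0.5 mg and 5727, 2908, 6088, 5764 and 3495 TPM at 1 mg, again with every Scl-cGVHD mouse above every syngeneic mouse. Ccl2 (chr11:82035571-82037453), Ccl7 (chr11:82045712-82047525) and Ccl12 (chr11:82101845-82103400) encode the CCR2 ligands that draw monocytes from blood. Ccl2 rose from 15.9, 18.9 and 11.2 TPM to 55.1, 391 and 97.7 TPM (log2 fold change 3.02, SE 0.71, adjusted p = 0.00817) and Ccl7 from 31.5, 36.8 and 19.9 TPM to 92.9, 258 and 113 TPM (log2 fold change 2.25, SE 0.66, adjusted p = 0.0218). The log2 fold change of Ccl2 was 2.22 without ID_1537 (adjusted p = 0.0409, limma) and 3.62 without ID_1535. The Ccl7 call was lost without ID_1527, ID_1529 or ID_1537 (adjusted p = 0.0547 to 0.0962, limma). Ccl7 in mAb-treated mice was at 38.6, 28.9, 21.1, 14.9 and 37.1 TPM (syngeneic), 139, 14.7 and 80.3 TPM (0.5 mg) and 121, 69.7, 136, 76 and 34.8 TPM (1 mg). Ccl12, at 39.9, 49.3 and 34.6 TPM in syngeneic IgG and 58.9, 148 and 83.8 TPM in Scl-cGVHD IgG mice, did not pass (log2 fold change 1.12, SE 0.58, adjusted p = 0.158).

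Ccr2 (chr9:124101950-124113557), the receptor of inflammatory monocytes, was at 15.6, 24.5 and 15.2 TPM in syngeneic IgG and 24.9, 14.7 and 8.89 TPM in Scl-cGVHD IgG mice, with overlapping groups (log2 fold change -0.26, SE 0.63, adjusted p = 0.773). At 1 mg it was at 29, 34.9, 16.4, 20.4 and 2.05 TPM, at 0.5 mg at 10.1, 15.8 and 9.94 TPM and in syngeneic mAb mice at 16.7, 22.1, 18.1, 21.3 and 17.4 TPM, and the lowest of all 19 mice was ID_1546. Ccr8 (chr9:120092114-120094906), found on regulatory and skin-homing T cells, stayed low, at 0.32, 0.93 and 0.23 TPM in syngeneic IgG, 1.45, 0.35 and 0.66 TPM in Scl-cGVHD IgG, 0.53, 0.47, 0.11, 0.49 and 0.32 TPM in syngeneic mAb, 0.49, 1.02 and 1.59 TPM in 0.5 mg and 0.65, 0.68, 1.67, 1.06 and 0.75 TPM in 1 mg mice. It was not called under IgG (log2 fold change 0.27, SE 0.27, adjusted p = 0.461) or under the mAb (log2 fold change 0.49, SE 0.21, adjusted p = 0.074). Ccl1, its other ligand, ranged from 3.33 to 11.7 TPM in syngeneic and from 1.57 to 12.9 TPM in Scl-cGVHD mice. Of 11 monocyte and macrophage markers, 6 were higher under IgG and 2 under the mAb (6.84% and 7.99% of all tested genes). Under IgG their sums were 1036 to 1238 TPM in syngeneic and 2758 to 7818 TPM in Scl-cGVHD mice, highest in ID_1537. Their part in these results was not tested.

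The ligands of CXCR2 differed widely between mice of a group. Cxcl1, Cxcl2, Cxcl3 and Cxcl5 lie together on chromosome 5 and encode attractants of neutrophils. Cxcl2 (chr5:90903871-90905938) was at 0.14, 0.06 and 0.06 TPM in syngeneic IgG and 1.45, 2641 and 98.6 TPM in Scl-cGVHD IgG mice. Although the groups did not overlap, the spread within the latter was wide and the test missed the threshold (log2 fold change 6.31, SE 2.27, adjusted p = 0.0519). It passed without ID_1535 (limma, adjusted p = 0.0108), with quantile normalization (0.0494), with a pseudocount of 0.1 (0.0305) and with a filter of 5 TPM (0.0448). In mAb-treated mice it was at 0.28, 0.19, 0.12, 0.31 and 0.21 TPM (syngeneic), 42.5, 0.13 and 3.01 TPM (0.5 mg) and 0.55, 0, 220.5, 1.16 and 154 TPM (1 mg), so that ID_1539, ID_1544 and ID_1546 were high and the other mAb-treated Scl-cGVHD mice low. Cxcl1 (chr5:90891241-90893115) was at 0.76, 1.22 and 1.43 TPM in syngeneic IgG and 2.75, 941 and 36.3 TPM in Scl-cGVHD IgG mice (log2 fold change 4.59, SE 1.54, adjusted p = 0.0405), and at 4.15, 1.09 and 2.47 TPM at 0.5 mg and 2.42, 0.99, 72.2, 0.95 and 26.8 TPM at 1 mg. Cxcl3 (chr5:90786103-90789600) was at 0.31, 0.07 and 0 TPM in syngeneic IgG and 1.36, 922 and 34.1 TPM in Scl-cGVHD IgG mice (log2 fold change 5.24, SE 1.83, adjusted p = 0.0471). Both calls were lost without ID_1537, where the log2 fold changes were 2.48 for Cxcl1 (adjusted p = 0.197, limma) and 3.02 for Cxcl3 (adjusted p = 0.226, limma), and without each of ID_1527, ID_1528, ID_1529 and ID_1538. Without ID_1535 the log2 fold changes were 6.47 and 7.33. The Cxcl3 call was also lost with median-ratio factors, trimmed-mean factors, no filter and a fit to the compared groups alone (adjusted p = 0.0506, 0.0508, 0.0675 and 0.0893, limma), and the Cxcl1 call with no filter and with the compared groups alone (0.0585 and 0.104). Cxcl5 (chr5:90759360-90761624) was listed at 0 in all 3 syngeneic IgG mice and was at 0.15, 155 and 1.61 TPM in the Scl-cGVHD group given IgG, without passing (limma, adjusted p = 0.0696, and 0.0103 without ID_1535).

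Cxcr2 (chr1:74153989-74161246), the neutrophil receptor for these ligands, separated the groups more evenly. Its levels were 0.64, 0.54 and 0.86 TPM in syngeneic IgG and 12.7, 43 and 8.3 TPM in Scl-cGVHD IgG mice (log2 fold change 3.41, SE 0.58, adjusted p = 0.00152), and 0.31, 0.52, 0.24, 0.44 and 0.39 TPM in syngeneic mAb mice, 12.4, 0.72 and 4.3 TPM at 0.5 mg and 8.81, 9.23, 17.1, 14.7 and 6.16 TPM at 1 mg. All Scl-cGVHD mice except ID_1540 were above every syngeneic mouse. The log2 fold change under IgG was 2.75 without ID_1537 (adjusted p = 0.00682, limma). Cxcr1 was at 5.23 TPM in ID_1537 and at most 0.93 TPM elsewhere, and was not tested. Of 15 neutrophil markers, 9 were higher under IgG and 2 under the mAb. Ly6g and Trem1, which are restricted to neutrophils and myeloid cells, were at 26.2 and 69.3 TPM in ID_1537 and at most 0.87 and 0.08 TPM in the syngeneic mice. Cxcr2 and the neutrophil sum were both highest in ID_1537. In the 1 mg group, however, ID_1545 had 14.7 TPM of Cxcr2 at a sum of 357 TPM, and ID_1546 had 6.16 TPM at 6564 TPM. Of 12 immediate early and heat shock genes, 8 were higher under IgG and 1 was higher and 1 lower under the mAb. Among all tested genes, 6.84% were higher under IgG, and 7.99% were higher and 28.3% lower under the mAb. The sum of Cxcl1, Cxcl2, Cxcl3 and Cxcl5 was 56.0 to 4658 TPM in ID_1537, ID_1538, ID_1539, ID_1544 and ID_1546 and at most 5.81 TPM in the other mice, and the neutrophil sum was 3943 to 38233 TPM in those 5 mice and at most 1076 TPM in the others. The part of either list in the result was not tested.

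The promoters of Cxcl1, Cxcl2 and Cxcl3 are shown because these neighbouring genes were high in the same mice and all hold a motif like a binding site of NF-kB. The letters GGG, any 2 bases, then TTTCC were searched on both strands, and 1.62% of the 27025 promoters hold them, against 6 of the 44 of these genes with a promoter in the RefSeq table (Cxcl1, Cxcl2, Cxcl3, Ccl9, Ccl20 and Ccr3). Cxcl1, Cxcl2 and Cxcl3 are neighbours that share a match of the same letters, so the 6 are not independent. Variants of these letters were not searched, and a promoter without a match may hold a similar site. Matches are in capitals in the 250 bases before the start, on the plus strand of GRCm38.p6 at chr5:90890995-90891244, chr5:90903649-90903898 and chr5:90785851-90786100.
Cxcl1: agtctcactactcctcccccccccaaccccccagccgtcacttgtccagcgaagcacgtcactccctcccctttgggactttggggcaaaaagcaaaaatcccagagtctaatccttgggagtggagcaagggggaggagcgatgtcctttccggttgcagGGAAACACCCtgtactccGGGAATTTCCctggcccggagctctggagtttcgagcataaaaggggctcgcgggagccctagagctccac
Cxcl2: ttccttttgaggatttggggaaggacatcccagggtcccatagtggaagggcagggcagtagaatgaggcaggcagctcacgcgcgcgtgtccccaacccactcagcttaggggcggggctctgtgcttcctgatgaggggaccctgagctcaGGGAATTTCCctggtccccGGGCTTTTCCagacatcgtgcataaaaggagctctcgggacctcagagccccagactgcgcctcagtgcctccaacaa
Cxcl3: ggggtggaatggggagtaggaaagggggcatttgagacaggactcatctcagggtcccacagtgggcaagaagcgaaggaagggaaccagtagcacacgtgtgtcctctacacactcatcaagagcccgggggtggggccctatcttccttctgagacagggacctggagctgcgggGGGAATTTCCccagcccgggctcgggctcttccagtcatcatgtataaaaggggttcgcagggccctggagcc
Cxcl1 and Cxcl2 hold 2 matches each and Cxcl3 holds 1. Ccl20 and Ccr3, which hold the same letters, were not called in either comparison of Scl-cGVHD with syngeneic skin.

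**Figure D2:**
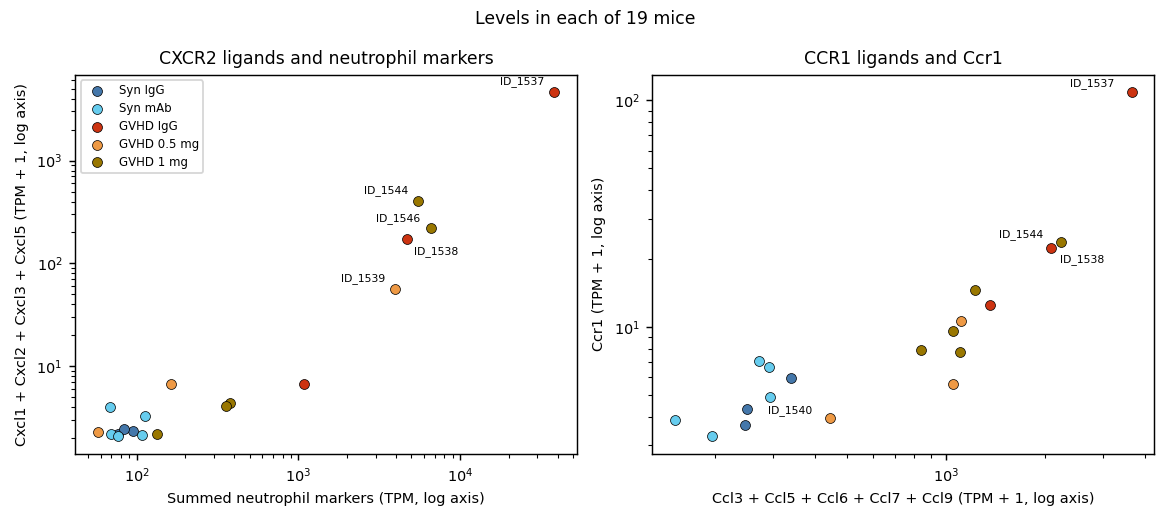
Left, the summed level of Cxcl1, Cxcl2, Cxcl3 and Cxcl5 (TPM + 1) against the summed level of 15 neutrophil markers (TPM); right, Ccr1 (TPM + 1) against the summed level of Ccl3, Ccl5, Ccl6, Ccl7 and Ccl9 (TPM + 1), each point being 1 of 19 mice coloured by group, on log axes. In the left panel 5 Scl-cGVHD mice stand apart at the upper right with ID_1537 at the end, and in the right panel Ccr1 and the sum of its ligands rise together among Scl-cGVHD mice.

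Cxcl13 was higher in Scl-cGVHD skin while its receptor was barely detected. CXCL13 attracts B cells and follicular helper T cells through CXCR5. Cxcl13 (chr5:95956951-95961068) was at 24.4, 37.8 and 8.9 TPM in syngeneic IgG and 66.1, 219.8 and 904 TPM in Scl-cGVHD IgG mice (log2 fold change 3.47, SE 0.85, adjusted p = 0.0101). The log2 fold change was 2.51 without ID_1538 (adjusted p = 0.0451, limma) and 4.39 without ID_1535. In the mAb groups it was at 26.6, 9.61, 18.8, 6.73 and 10.1 TPM in syngeneic, 167, 79 and 42.9 TPM in 0.5 mg and 156, 55.5, 232, 38.5 and 87 TPM in 1 mg mice, and all 11 Scl-cGVHD mice lay above the syngeneic range. Cxcr5 was at most 0.12 TPM in Scl-cGVHD mice and reached 0.98 TPM only in the syngeneic mAb mouse ID_1532.

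Cxcr4 was called higher under IgG and its ligand Cxcl12 lower under the mAb. CXCL12 is made by fibroblasts and other stromal cells and retains leukocytes that carry CXCR4. Cxcl12 (chr6:117168535-117181367) was even in syngeneic skin, at 113, 111 and 117 TPM with IgG and 126, 122, 119.7, 121 and 94.5 TPM with the mAb. In Scl-cGVHD it was at 10.5, 184 and 45.4 TPM with IgG, 23.2, 112 and 29.3 TPM at 0.5 mg and 33.9, 39.5, 27, 13.5 and 8.55 TPM at 1 mg, and 9 of the 11 mice lay below every syngeneic mouse. ID_1537 was above and ID_1540 inside the syngeneic range. Cxcl12 was not called under IgG (log2 fold change -1.31, SE 0.76, adjusted p = 0.209) and was called lower under the mAb (log2 fold change -2.39, SE 0.59, adjusted p = 0.00602). A list of 8 fibroblast markers summed to 6653 to 10563 TPM in syngeneic IgG, 411 to 2666 TPM in Scl-cGVHD IgG, 465 to 7518 TPM in 0.5 mg and 298 to 1129 TPM in 1 mg mice, and its part in the result was not tested. Cxcr4 (chr1:128588199-128592293) rose from 3.78, 10.4 and 5.24 TPM to 15.8, 72.6 and 19.9 TPM under IgG (log2 fold change 2.08, SE 0.50, adjusted p = 0.00873, and 1.43 with adjusted p = 0.0456 without ID_1537), but was at 5.66, 8.59, 5.74, 13.3 and 9.6 TPM in syngeneic mAb and 9.94, 6.27, 23.7, 9.66 and 8.04 TPM in 1 mg mice without a call (log2 fold change 0.31, SE 0.39, adjusted p = 0.544). The 0.5 mg mice were at 6.82, 9.45 and 8.41 TPM, inside the syngeneic range.

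**Figure D3:**
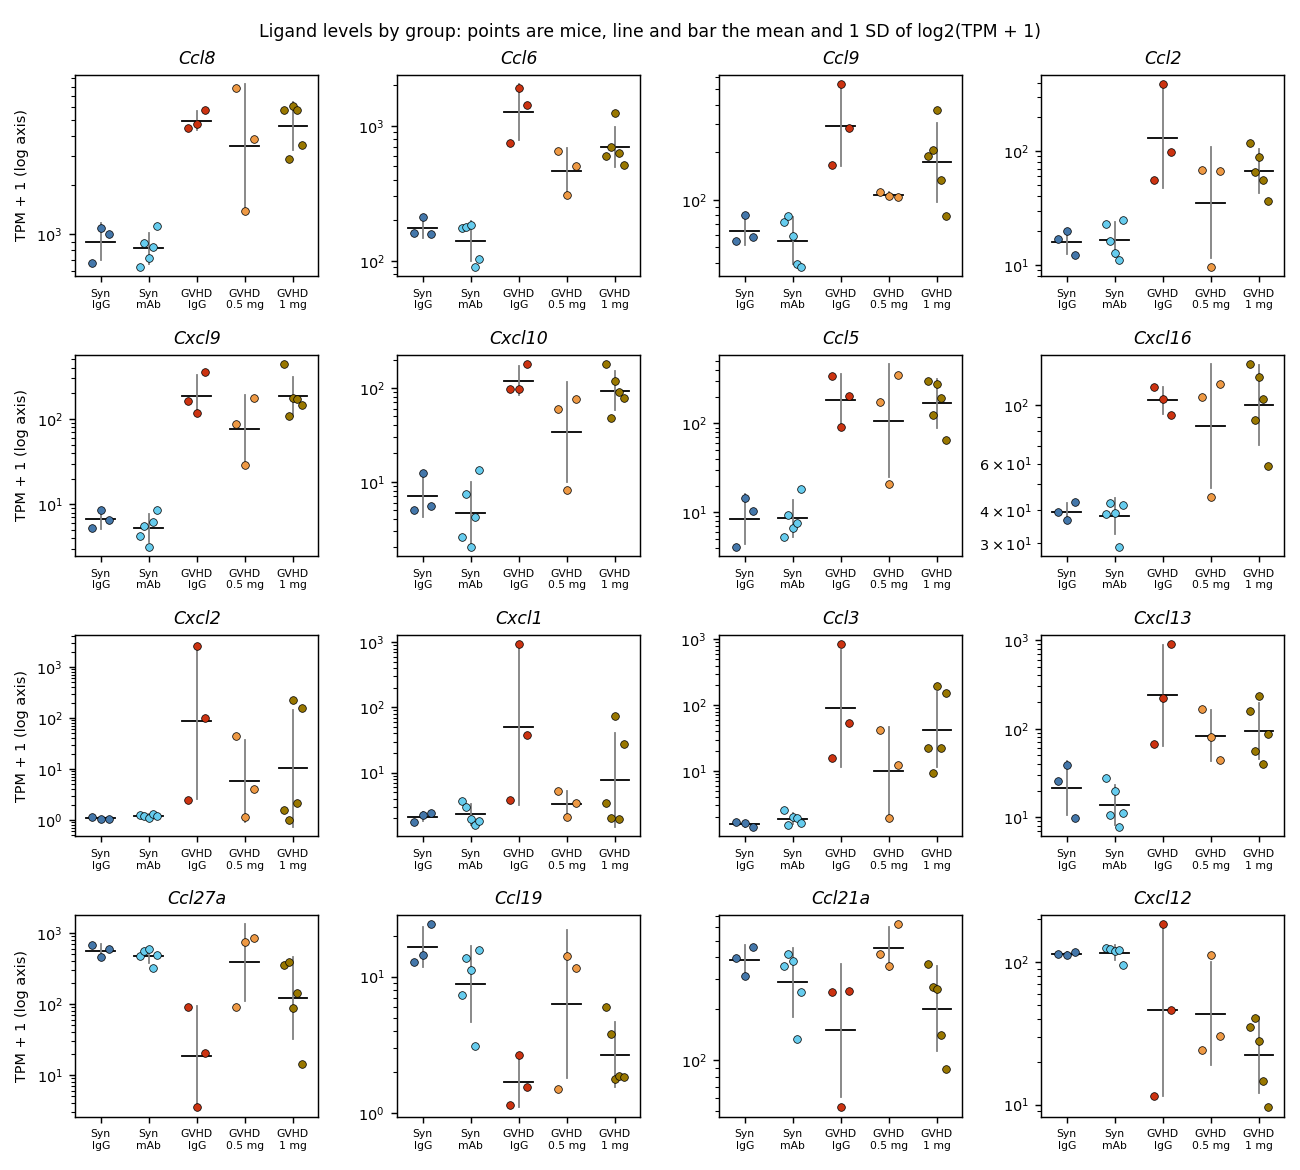
Levels of 16 ligands (TPM + 1, log axes that differ between panels) in the 5 groups; points are mice, horizontal lines the mean and vertical bars 1 SD of log2(TPM + 1). Cxcl9, Ccl6, Ccl8, Ccl5, Cxcl16 and Cxcl13 separate all Scl-cGVHD from all syngeneic mice, Cxcl2 and Ccl3 are spread over a wide range among Scl-cGVHD mice, and Ccl27a and Ccl19 are lower in Scl-cGVHD IgG mice.

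Ccl27a, a chemokine of homeostatic skin homing, fell under IgG. CCL27 is made by keratinocytes and binds CCR10 on skin-homing T cells. Ccl27a (chr4:41769467-41774247) fell from 678, 449 and 587 TPM in syngeneic IgG to 90.2, 2.5 and 19.1 TPM in Scl-cGVHD IgG mice (log2 fold change -4.92, SE 1.17, adjusted p = 0.00857), the lowest level being in ID_1537. The log2 fold change was -3.72 without that mouse (adjusted p = 0.0465, limma) and -6.07 without ID_1535. Markers of wound keratinocytes were higher in 3 of 4 genes under IgG (6.84% of all tested genes). Their sums were 1040 to 1343 TPM in syngeneic IgG and 8704 to 14497 TPM in Scl-cGVHD IgG mice, and their part was not tested. Sums of basal and differentiating keratinocyte markers were 14207 to 16210 TPM in syngeneic IgG mice. They were 31544, 8044 and 18390 TPM in ID_1535, ID_1537 and ID_1538, and their part was not tested either. With the mAb, Ccl27a was at 469.8, 560.3, 582, 319.8 and 481 TPM in syngeneic mice, 90.4, 731 and 837 TPM in 0.5 mg mice and 347, 383, 87.4, 141 and 13.5 TPM in 1 mg mice. ID_1540 and ID_1541 were therefore above every syngeneic mouse, and the comparison under the mAb did not pass (log2 fold change -1.99, SE 0.90, adjusted p = 0.0926). Ccl27b is a close copy, and reads of the pair may have been divided between them by the estimation. The sum of both was 621 ± 153 TPM in syngeneic IgG, 47.4 ± 51.7 TPM in Scl-cGVHD IgG, 590.5 ± 439 TPM in 0.5 mg and 221 ± 177 TPM in 1 mg mice (SD). Ccr10 was at most 0.63 TPM and Ccl28, another CCR10 ligand, at most 0.77 TPM in any mouse, and neither was tested.

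Ccr4 (chr9:114490316-114504916), a receptor of skin-homing and helper T cells, was lower in Scl-cGVHD. It was at 8.26, 6.01 and 3.82 TPM in syngeneic IgG and 0.6, 0 and 0.08 TPM in Scl-cGVHD IgG mice (log2 fold change -2.50, SE 0.50, adjusted p = 0.00348), and at 6.2, 9.53, 2.79, 3.81 and 2.4 TPM in syngeneic mAb mice, 0.02, 2.18 and 0.57 TPM at 0.5 mg and 1.69, 3.07, 0.68, 1.4 and 0.03 TPM at 1 mg (log2 fold change -1.34, SE 0.39, adjusted p = 0.0144). Of the 11 Scl-cGVHD mice, ID_1543 alone, at 3.07 TPM, was above the lowest syngeneic mouse at 2.40 TPM. Its ligands did not follow. Ccl17 (chr8:94810453-94812036) was at 6.48, 7.34 and 7.08 TPM in syngeneic IgG and 66, 1.8 and 7.32 TPM in Scl-cGVHD IgG mice, without a call (log2 fold change 0.54, SE 0.98, adjusted p = 0.69). Under the mAb it was at 5.82, 6.11, 4.83, 2.49 and 7.85 TPM in syngeneic, 69.7, 20.2 and 29 TPM in 0.5 mg and 95.2, 49, 28.1, 20.7 and 4.36 TPM in 1 mg mice and was called higher in 1 mg than in syngeneic mAb mice (log2 fold change 2.17, SE 0.76, adjusted p = 0.0343). Ccl22, the other CCR4 ligand, was at 1.45 to 12.2 TPM in Scl-cGVHD and 2.96 to 7.61 TPM in syngeneic mice and was not called. Markers of dendritic and Langerhans cells, which make both ligands, were lower in 4 of 10 genes under IgG (17.9% of all tested genes). Their sums under IgG overlapped, at 1007 to 1523 TPM in syngeneic and 419 to 1864 TPM in Scl-cGVHD mice. Under the mAb 1 was higher and 3 lower (7.99% and 28.3% of all tested genes). Xcr1 is itself on that list, and the part of the list was not tested.

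Ccl19 (chr4:42754525-42756577) and Ccl21a (chr4:42772860-42773993) encode the ligands of CCR7, which leads dendritic cells and naive T cells into lymphatics and lymph nodes. Ccl19 fell from 11.7, 13.5 and 23.2 TPM to 0.15, 1.67 and 0.55 TPM under IgG (log2 fold change -3.29, SE 0.75, adjusted p = 0.00641). It was at 6.37, 12.6, 10.1, 2.11 and 14.6 TPM in syngeneic mAb, 0.49, 13.3 and 10.6 TPM in 0.5 mg and 4.97, 2.76, 0.76, 0.88 and 0.83 TPM in 1 mg mice (log2 fold change -1.73, SE 0.58, adjusted p = 0.0282), and ID_1540, ID_1541, ID_1542 and ID_1543 were in the syngeneic range. Close pseudogene copies of Ccl19 are annotated, at most 2.94 TPM in any mouse, so that some of its reads may have been assigned there. Ccl21a was at 394, 310.4 and 463 TPM in syngeneic IgG, 248, 51.9 and 252 TPM in Scl-cGVHD IgG, 354, 419.7, 379.7, 132 and 251 TPM in syngeneic mAb, 416, 355 and 626 TPM in 0.5 mg and 366, 266, 262, 139.8 and 87.6 TPM in 1 mg mice. It did not pass under IgG (log2 fold change -1.37, SE 0.59, adjusted p = 0.0944) or under the mAb (log2 fold change -0.51, SE 0.45, adjusted p = 0.375), and Ccl21b and Ccl21c, near-identical copies, were at most 0.79 TPM. Ccr7 (chr11:99144196-99155077) was at 0.82, 0.95 and 0.83 TPM with syngeneic IgG, 3.36, 0.7 and 3.13 TPM with Scl-cGVHD IgG, 0.58, 0.77, 0.71, 0.67 and 1.61 TPM with syngeneic mAb, 1.37, 1.48 and 2.66 TPM at 0.5 mg and 2.7, 2.56, 2.15, 3.14 and 0.52 TPM at 1 mg and was not called (log2 fold change 0.75, SE 0.37, adjusted p = 0.14).

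The other pairs were low or not called under IgG. Ccl20 and Ccr6 guide T helper 17 cells and dendritic cells to epithelium. Ccl20 was at 2.86, 5.56 and 4.27 TPM in syngeneic IgG, 2.21, 0.69 and 4.02 TPM in Scl-cGVHD IgG, 1.95, 3.65, 4.95, 3.6 and 5.4 TPM in syngeneic mAb, 7.42, 4.12 and 2.54 TPM in 0.5 mg and 7.48, 4.49, 7.05, 2.46 and 0.72 TPM in 1 mg mice, with overlapping groups. Ccr6 was at 0.75, 0.5 and 0.89 TPM in syngeneic IgG and 0, 0 and 0.14 TPM in Scl-cGVHD IgG mice (log2 fold change -0.71, SE 0.34, adjusted p = 0.126) and lower under the mAb, at 1.42, 2.69, 0.79, 0.35 and 0.99 TPM in syngeneic and 0.19, 0.45, 0.14, 0 and 0 TPM in 1 mg mice (log2 fold change -0.89, SE 0.26, adjusted p = 0.0145), while 0.5 mg mice were at 0, 1.65 and 0.32 TPM. Ccl25 and Ccr9, known for homing to gut and thymus, were at most 4.80 and 1.66 TPM in any mouse. Ccl25 was at 3.27, 3.94 and 2.39 TPM with syngeneic IgG, 2.56, 2.38 and 2.62 TPM with Scl-cGVHD IgG, 1.86, 4.8, 2.97, 4.1 and 4.61 TPM with syngeneic mAb, 3.46, 3.31 and 2.05 TPM at 0.5 mg and 1.61, 2.46, 1.75, 1.72 and 0.68 TPM at 1 mg, and was called lower in 1 mg than in syngeneic mAb mice (log2 fold change -0.81, SE 0.22, adjusted p = 0.0104). Ccr9, at 0.45, 0.53 and 0.73 TPM with syngeneic IgG, 0.42, 0.24 and 0.56 TPM with Scl-cGVHD IgG, 0.87, 0.52, 0.41, 0.61 and 0.14 TPM with syngeneic mAb, 0.5, 1.45 and 0.41 TPM at 0.5 mg and 1.27, 1.66, 1.4, 0.99 and 0.5 TPM at 1 mg, was called higher in 1 mg than in syngeneic mAb mice (log2 fold change 0.51, SE 0.19, adjusted p = 0.0468), near the threshold. This call was lost with a pseudocount of 0.1, with no filter and with the compared groups alone (adjusted p = 0.0612, 0.0586 and 0.0605, limma).

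CCL11 and CCL24 attract eosinophils through CCR3. Ccl11 was at 57.9, 52.8 and 57.4 TPM in syngeneic IgG, 70.6, 44 and 74.8 TPM in Scl-cGVHD IgG, 59.1, 52.3, 69, 30.2 and 38.7 TPM in syngeneic mAb, 145, 113 and 57.8 TPM in 0.5 mg and 85.4, 80.7, 76, 79.4 and 38.3 TPM in 1 mg mice, and was not called. Ccl24 was 46.7 to 48.4 TPM in syngeneic IgG and 7.07 to 17.6 TPM in Scl-cGVHD IgG mice without passing the test (log2 fold change -1.78, SE 0.70, adjusted p = 0.0716), and Ccr3, at 1.21, 1.69 and 1.0 TPM in syngeneic IgG and 0.63, 1.78 and 0.9 TPM in Scl-cGVHD IgG mice and 1.24, 1.5, 2.34, 0.66 and 0.87 TPM in syngeneic mAb mice, 1.35, 0.46 and 0.51 TPM at 0.5 mg and 0.57, 0.67, 1.65, 0.7 and 0.47 TPM at 1 mg, overlapped between all groups. XCL1, made by natural killer and CD8 T cells, binds XCR1 on cross-presenting dendritic cells. Xcl1 was at 3.34, 4.63 and 1.94 TPM with syngeneic IgG, 2.03, 0.52 and 1.97 TPM with Scl-cGVHD IgG, 0.55, 2.7, 3.24, 1.3 and 3.06 TPM with syngeneic mAb, 1.0, 1.1 and 4.8 TPM at 0.5 mg and 4.24, 6.74, 2.59, 5.29 and 0.39 TPM at 1 mg and Xcr1 at 0.74, 0.94 and 0.91 TPM with syngeneic IgG, 0.83, 0 and 0.03 TPM with Scl-cGVHD IgG, 0.74, 1.16, 0.85, 1.09 and 1.01 TPM with syngeneic mAb, 0.13, 1.03 and 0.4 TPM at 0.5 mg and 0.33, 0.96, 0.28, 0.47 and 0.07 TPM at 1 mg, and neither was called. Cxcl14, an abundant chemokine of normal epithelium, was at 78.0 to 256 TPM in syngeneic and 24.1 to 156 TPM in Scl-cGVHD mice and was not called.

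Among the atypical receptors, Ackr4 moved most. ACKR4 takes up CCL19, CCL21 and CCL25 and is known in skin keratinocytes and lymphatics. Ackr4 (chr9:104084157-104126933) fell from 63.8, 40.9 and 55.4 TPM in syngeneic IgG to 2.47, 2.04 and 0.74 TPM in Scl-cGVHD IgG mice (log2 fold change -4.34, SE 1.05, adjusted p = 0.00927). In the mAb groups it was at 62.6, 56.8, 54.1, 24.2 and 29.2 TPM in syngeneic, 0.98, 52.3 and 25 TPM in 0.5 mg and 21.3, 30.4, 6.02, 6.94 and 0.53 TPM in 1 mg mice (log2 fold change -2.27, SE 0.81, adjusted p = 0.0388). ID_1540, ID_1541 and ID_1543 were thus within the syngeneic range. Ackr1 (chr1:173331886-173333750), which carries chemokines across the endothelium of venules, was at 28, 23.8 and 29.6 TPM in syngeneic IgG and 18.1, 10.1 and 12.4 TPM in Scl-cGVHD IgG mice (log2 fold change -0.99, SE 0.32, adjusted p = 0.0336), and at 27.8, 25.1, 21.6, 9.41 and 14.1 TPM in syngeneic mAb mice, 16, 23.2 and 20.2 TPM at 0.5 mg and 18.5, 17.1, 13.7, 14.3 and 10.7 TPM at 1 mg (log2 fold change -0.30, SE 0.25, adjusted p = 0.337). Its call was lost with median-ratio, quantile or trimmed-mean scaling (log2 fold change -0.70 to -0.61, adjusted p = 0.114 to 0.144, limma), which bring the median of all genes from -0.33 to between -0.06 and 0, and without any one of ID_1527, ID_1528, ID_1529, ID_1537 and ID_1538. Ackr2 (chr9:121898355-121911074), the scavenger of inflammatory CC chemokines, was at 10.1, 8.3 and 5.77 TPM in syngeneic IgG and 2.4, 1.8 and 3.75 TPM in Scl-cGVHD IgG mice and just missed the threshold (log2 fold change -1.31, SE 0.47, adjusted p = 0.0503), and was at 9.07, 7.24, 12.1, 3.52 and 3.94 TPM in syngeneic mAb mice, 1.55, 9.17 and 4.47 TPM at 0.5 mg and 5.6, 4.2, 2.97, 1.98 and 2.0 TPM at 1 mg. Ackr3 (chr1:90203980-90216751), the scavenger of CXCL12, was at 27.9, 22.5 and 21.2 TPM in syngeneic IgG and 34.6, 76.6 and 37 TPM in Scl-cGVHD IgG mice (log2 fold change 0.93, SE 0.36, adjusted p = 0.0649), and at 36.9, 27.6, 29.1, 13.9 and 16.8 TPM in syngeneic mAb mice, 31.2, 36.8 and 32.4 TPM at 0.5 mg and 43.5, 38.6, 35.1, 35.5 and 17.9 TPM at 1 mg.

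**Figure D4:**
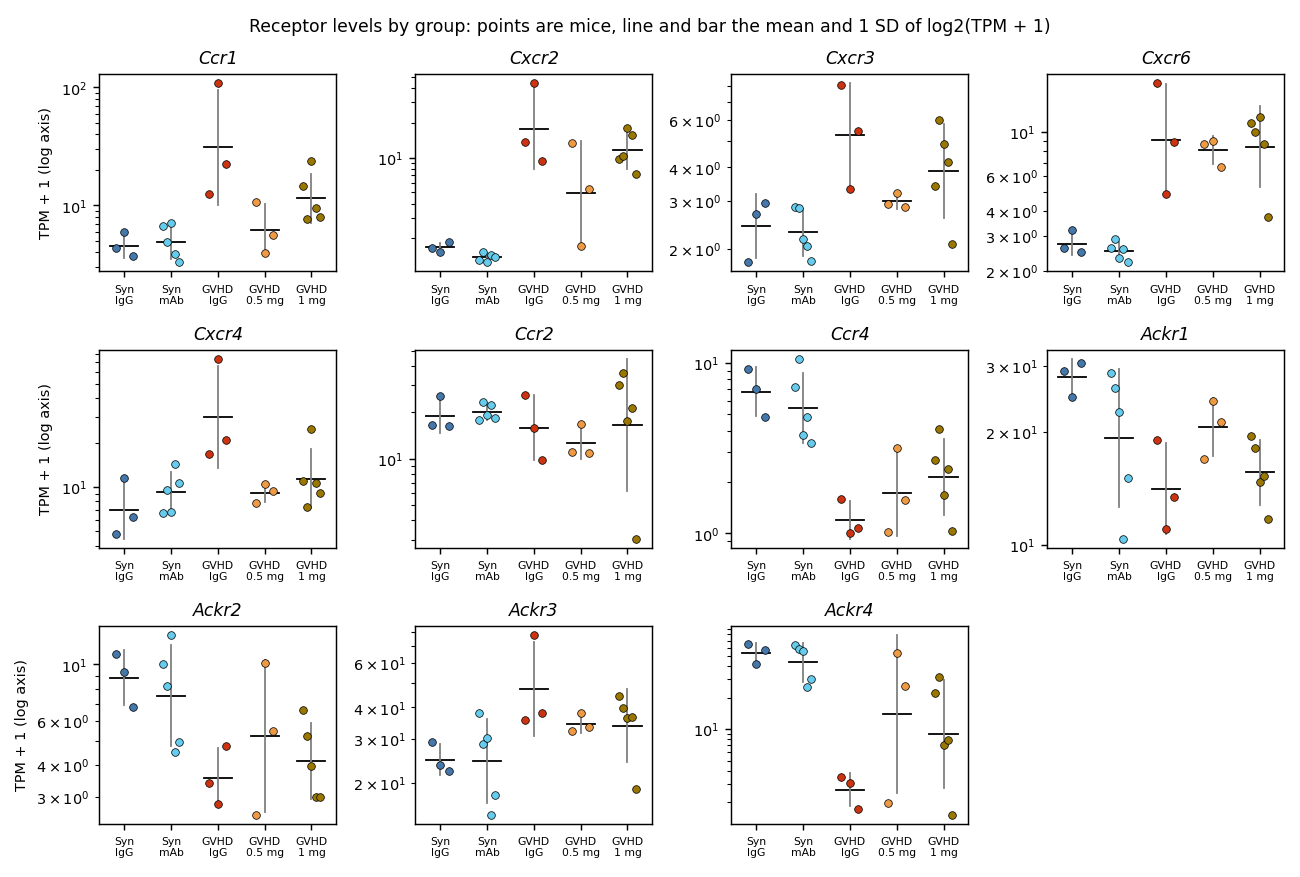
Levels of 11 receptors (TPM + 1, log axes that differ between panels) in the 5 groups; points are mice, horizontal lines the mean and vertical bars 1 SD of log2(TPM + 1). Cxcr6 separates all Scl-cGVHD from all syngeneic mice, Cxcr2 all but 1, Ccr2 overlaps between groups, and Ccr4 and Ackr4 have their lowest group mean in Scl-cGVHD IgG mice.

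The comparison of Scl-cGVHD mice given 1 mg of the mAb with syngeneic mice given the mAb shares no mouse with the comparison under IgG. There, 18 of the 49 genes were higher and 6 lower (limma, adjusted p under 0.05), against 7.99% and 28.3% of all tested genes. The lists share 16 higher genes, which are 80% of those called under IgG and 88.9% of those called under the mAb, among them Ccl2, Ccl3, Ccl4, Ccl5, Ccl6, Ccl7, Ccl8, Ccl9, Cxcl9, Cxcl10, Cxcl13, Cxcl16, Cxcr2, Cxcr3 and Cxcr6. Higher under IgG only were Ccr1, Cxcr4, Cxcl1 and Cxcl3, and under the mAb only Ccl17 and Ccr9. Lower in both were Ackr4, Ccl19 and Ccr4, under IgG only Ackr1 and Ccl27a, and under the mAb only Cxcl12, Ccr6 and Ccl25. The smallest p under the mAb belonged to Cxcl9 (log2 fold change 5.13, SE 0.46, adjusted p = 3.37e-06), followed by Ccl6 (log2 fold change 2.31, SE 0.30, adjusted p = 6.61e-05) and Ccl8 (log2 fold change 2.48, SE 0.35, adjusted p = 0.000136). Of these calls, 6 were lost on leaving out any 1 of several mice (limma), so that each lay near the threshold and depended on which mice were included. Ackr4 was lost without ID_1530, ID_1531, ID_1532, ID_1544, ID_1545 or ID_1546 (adjusted p = 0.0697 to 0.109), and Ccl19 without ID_1531, ID_1532, ID_1534, ID_1544, ID_1545 or ID_1546 (0.0556 to 0.0674). Ccl7 was lost without ID_1532, ID_1533, ID_1542 or ID_1544 (0.055 to 0.0703), and Cxcr3 without any of ID_1532 to ID_1534 and ID_1542 to ID_1545 (0.05002 to 0.0975). Ccr9 was lost without any of ID_1531 to ID_1534 and ID_1542 to ID_1545 (0.0574 to 0.108), and Ccl17 without any of ID_1530 to ID_1533 and ID_1542 to ID_1545 (0.0514 to 0.0821). Without ID_1533 and ID_1534, the syngeneic mice of high hair keratin, 5 calls were lost: those of Ccl25 (0.0615), Ccl7 (0.0747), Ccl17 (0.0846), Ccr9 (0.142) and Cxcr3 (0.169). The log2 fold changes of Ccl4 without ID_1544 and of Ccl17 and Ackr4 without ID_1546 were 3.72, 2.77 and -1.63, against 4.33, 2.17 and -2.27 with all mice. The lower calls of Ackr4, Ccl19 and Ccl25 were lost with all 3 other scalings (0.0518 to 0.106). In 17 genes the 1 mg mice all lay above the syngeneic mAb mice (5.96% of all genes) and in 1, Cxcl12, below them (20.6% of all genes). A call in one comparison and not in the other is no test of a difference: in the direct test of the difference (the response to 1 mg in Scl-cGVHD minus the response in syngeneic mice) 0 of the 49 genes were called (limma, smallest adjusted p = 0.9998), and 0% of all tested genes. At an unadjusted p under 0.05 that test held 1 gene below 0, Cxcr4, and 1 above 0, Ccr9 (1.61% and 1.95% of all genes).

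**Figure D5:**
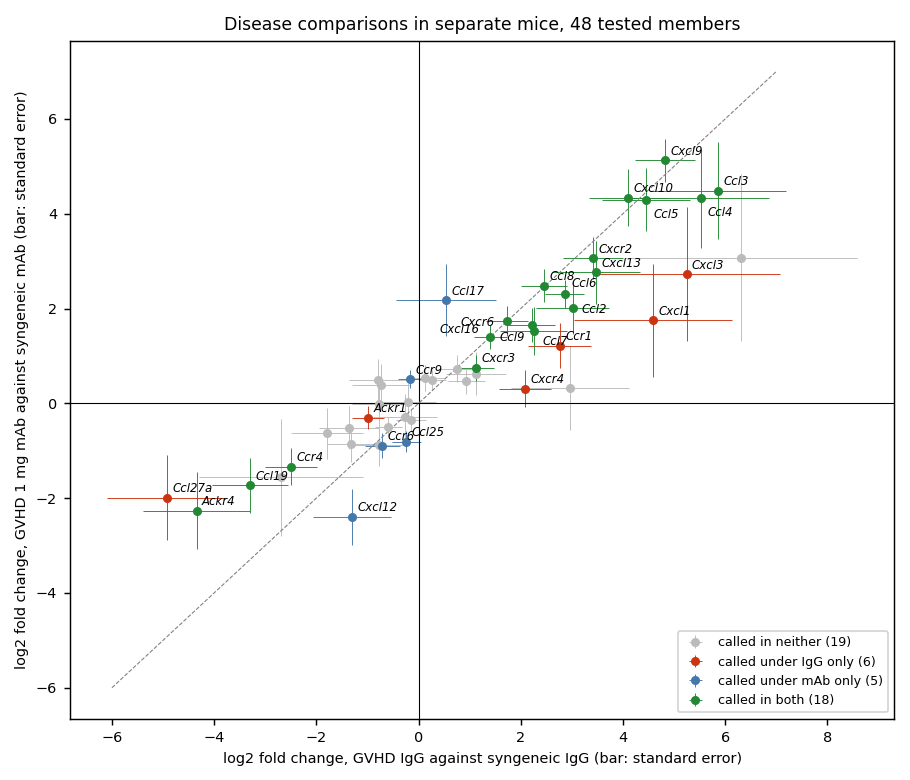
Log2 fold changes of 48 tested genes in Scl-cGVHD IgG against syngeneic IgG mice (x axis) and in Scl-cGVHD 1 mg mAb against syngeneic mAb mice (y axis), on log2(TPM + 1), with bars for the standard error and a dashed line of equality; colours mark the genes called in both (18), under IgG only (6), under the mAb only (5) or in neither (19). Among the called genes, Cxcl1, Cxcl3, Ccr1 and Cxcr4 lie farthest to the right of the line, and Ccl27a, Ackr4, Ccl17 and Ccl19 farthest above it.

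Receptors and ligands were called higher together in 5 of 16 listed pairs under IgG, among them Ccr1 with Ccl3, Ccl5, Ccl6, Ccl7 and Ccl9, Cxcr2 with Cxcl1 and Cxcl3, Cxcr3 with Cxcl9 and Cxcl10, and Cxcr6 with Cxcl16. Under the mAb 3 pairs did so, among them those of Cxcr3 and Cxcr6. A pair was counted where the receptor and 1 or more of its ligands were higher. Under IgG 6 of 18 receptors and 14 of 31 ligands were higher, and under the mAb 5 and 13. How many joint calls would arise without a link was not computed, so these counts describe the calls only. Across the 11 Scl-cGVHD mice, the log2 level of a receptor was compared with that of the sum of its ligands in 14 pairs. Pearson's r was above 0 in 13 pairs, and only 1 passed adjustment over the 14 pairs. Ccr1 followed the sum of its ligands with r = 0.935 (two-sided permutation test, p = 2e-05, adjusted p = 0.00028) and Spearman's coefficient of 0.945 (permutation p = 9e-05, adjusted p = 0.00126). The relation held at r = 0.891 without ID_1537 and ID_1540, the mice farthest from the median of the ligands, and at r = 0.871 after centring on the treatment groups. The sum mostly follows Ccl6, whose mean over all 19 mice was 551 TPM. The means were 145 TPM for Ccl9, 116 TPM for Ccl5, 72.3 TPM for Ccl3 and 71.8 TPM for Ccl7. Correlations of Ccr1 with single ligands were not computed. For Cxcr2 r was 0.604 (permutation p = 0.0453, adjusted p = 0.211), Spearman's coefficient was 0.364 (permutation p = 0.271), and r was 0.202 without ID_1537 and ID_1544, so that the relation rested on these mice. Some ligands stand in more than one pair, so that the pairs are not independent.

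Within Scl-cGVHD, no chemokine or receptor passed the test against control IgG at either dose of the mAb. At 0.5 mg, 0 of 49 were called (limma), against 0.0122% higher and 0.0428% lower of all tested genes, and at 1 mg 0 of 49 and 0% of all tested genes. At an unadjusted p under 0.05, 4 were higher and 16 lower at 0.5 mg (5.7% and 8.78% of all genes), and 2 higher and 4 lower at 1 mg (4.62% and 5.61%). The smallest p at 0.5 mg belonged to Ccr1 (log2 fold change -2.34, SE 0.62, adjusted p = 0.119), Ccl6 (log2 fold change -1.45, SE 0.38, adjusted p = 0.121), Ccl27a (log2 fold change 4.36, SE 1.17, adjusted p = 0.124) and Cxcr4 (log2 fold change -1.69, SE 0.50, adjusted p = 0.158). For each of these genes the 3 mice at 0.5 mg did not overlap with the 3 IgG mice, as the levels above show, and such separation was seen in 3 genes upward and 6 downward (4.25% and 6.88% of all genes). For Ccl27a the separation was minimal, with 90.22 TPM in ID_1535 (IgG) and 90.37 TPM in ID_1539 (0.5 mg). At 1 mg the same genes had smaller differences that did not pass: -1.44 for Ccr1, -0.86 for Ccl6, 2.68 for Ccl27a and -1.38 for Cxcr4 (adjusted p = 0.317 to 0.401, limma), and 0 genes separated the groups (1.13% of all genes upward and 2.78% downward). Both comparisons share the IgG mice. They depended on single mice: without ID_1535, 7 genes passed at 0.5 mg (Ccl27a higher, and Ccl6, Ccl9, Ccr1, Cxcl1, Cxcl5 and Cxcr4 lower) and 2 at 1 mg (Ccr1 and Cxcl5 lower), and without ID_1539 5 genes passed at 0.5 mg (Ackr4, Ccl19 and Ccl27a higher, and Ccl12 and Cxcr2 lower). No gene passed at either dose without ID_1537, which was also the result with all mice.

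Neither Cxcl9 nor Ccl8 passed. Cxcl9 had a log2 fold change of -1.31 (SE 0.59, adjusted p = 0.318) at 0.5 mg and -0.04 (SE 0.53, adjusted p = 1) at 1 mg in limma, and Ccl8 of -0.51 (SE 0.45, adjusted p = 0.651) and -0.11 (SE 0.40, adjusted p = 0.981). The 0.5 mg and 1 mg groups did not differ in any of the 49 genes at an adjusted p under 0.05 (limma, 0 called and 0% of all genes), with 3 higher and 2 lower at 1 mg at an unadjusted p under 0.05 (2.94% and 2.35%). In syngeneic mice the mAb gave 0 calls (0% of all tested genes), and 0 genes had an unadjusted p under 0.05, against 0.294% higher and 0.41% lower of all tested genes.

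Genes of the machinery downstream of the receptors were higher in part. Of 39 tested genes of receptor signalling, from G protein subunits to small GTPases and kinases, 12 were higher and 1 lower under IgG and 7 were higher and 3 lower under the mAb, against 6.84% higher and 17.9% lower under IgG and 7.99% higher and 28.3% lower under the mAb among all tested genes. The median log2 fold change of the list under IgG was 0.27. Among those higher under IgG were Rgs1, a brake on G protein signalling in lymphocytes (log2 fold change 4.23, SE 0.53, adjusted p = 0.00018), the haematopoietic GTPase Rac2 (log2 fold change 1.69, SE 0.33, adjusted p = 0.00273) and the exchange factor Vav1 (log2 fold change 1.57, SE 0.38, adjusted p = 0.0091). Grk3, a kinase that switches off activated receptors, was lower (log2 fold change -1.32, SE 0.39, adjusted p = 0.0232). Of 11 genes that trim or present chemokines, 3 were higher under IgG: the proteases Mmp12 (log2 fold change 3.13, SE 0.43, adjusted p = 0.000351), Mmp9 (log2 fold change 3.01, SE 0.67, adjusted p = 0.00575) and Mmp8 (log2 fold change 4.30, SE 1.23, adjusted p = 0.0205). Mmp2 was lower (log2 fold change -1.50, SE 0.48, adjusted p = 0.0306). Rac2 and Vav1 are restricted to blood cells, several of whose markers were also higher under IgG, and their part was not tested.

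The remaining genes were too low to test: Ccl21b, Ccl21c, Ccl26, Ccl28, Cxcl15, Cxcl17, Ccr10, Ccr1l1, Cxcr1 and Cxcr5. Ccl26 was listed at 0 in every mouse, and the others reached 1 TPM in at most 1 mouse. Genes that passed only through the group in which they were high are among the 49, so the count of increases is over the tested genes and not over all 59.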

How the data were processed

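RNA of skin from 19 mice was purified with DNase treatment, made into stranded mRNA libraries and sequenced as paired reads. The authors used Trimmomatic for trimming, FastQC for quality, STAR 2.5.2b for alignment, estimated levels with RSEM 1.2.31 on GRCm38 with Ensembl release 88, and deposited TPM values (levels per transcript length that sum to a fixed total in each library). TPM values keep no depth, so no count test was run. RSEM divides reads shared by near-identical genes between them. The authors' own tests, made with edgeR, were not used. Levels were tested here as log2(TPM + 1) in 1 limma fit (limma 3.58.1 in R 4.3.3, with trended and robust variance) over all 5 groups and the 16350 genes with at least 1 TPM in 3 or more mice. P values were adjusted over all tested genes by Benjamini and Hochberg, at a threshold of 0.05. The fit was tested on simulated data. Each mouse is 1 library, and mouse numbers pair no samples. Ligand and receptor correlations over the 11 Scl-cGVHD mice used 100000 permutations (scipy 1.17.1, Python 3.11.15). The labels name no sequencing batch. Per-mouse values were given for the 12 genes of smallest p under IgG, the receptor and most abundant ligand of each pair, the atypical receptors and some further genes named after their values were seen. A further rule, a call between mAb-treated and IgG-treated mice, named no gene. The genes, lists and pairs were chosen with earlier results of these data known. Alternatives were other scalings, the pseudocount 0.1, a fit to just the compared groups, a minimum of 5 TPM or none, a minimum log2 fold change of 1 and leaving out mice. Leaving out ID_1537 by name was chosen after seeing the data. Promoters came from RefSeq (GRCm38.p6, the same build), and 44 of the 59 genes matched. The match was by symbol, with the start site nearest the deposited gene start. The furthest lay 125878 bases from it, so not every counted promoter is that of the deposited start. Those printed lay 0 to 28 bases from it. Some results are not reported here, in the text or the figures, although the counts over all tested genes include them.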

Additional observations from a re-analysis of the deposited data

Results flagged for a closer look

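In groups of 5 mice, 12 of 98 combinations of gene and group held a mouse set apart from the others by Dixon's test, which flags about 1 in 20 groups by chance. Of these, 6 were low values of ID_1546 (1 mg): Ackr3 at 17.9 TPM (others 35.1 to 43.5), Ccl1 at 1.98 TPM (8.04 to 12.9), Ccl11 at 38.3 TPM (76.0 to 85.4), Ccr7 at 0.52 TPM (2.15 to 3.14), Cxcl14 at 24.1 TPM (78.0 to 114) and Cxcr6 at 2.75 TPM (7.64 to 10.9). Mouse ID_1544 (1 mg) was high in Ccr3 at 1.65 TPM (others 0.47 to 0.70) and in Cxcl5 at 2.61 TPM (0.04 to 0.15). Among syngeneic mAb mice, ID_1534 was high in Ccr7 at 1.61 TPM (0.58 to 0.77), low in Cxcl12 at 94.5 TPM (120 to 126) and the single mouse of its group with Cxcl3 above 0, at 0.05 TPM, and ID_1533 was low in Cxcl16 at 27.9 TPM (37.7 to 41.7). Outside the protein-coding genes, Cxcl11, which the annotation of these files calls a polymorphic pseudogene and which would encode another CXCR3 ligand, had a mean of 37.2 TPM in Scl-cGVHD IgG mice, against 0.37 to 1.23 TPM in the syngeneic IgG mice.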

How the results depend on the processing

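Of the 25 genes called under IgG, 19 kept their call in every setting run, and of the 24 called under the mAb, 15 did. The number of genes lower under IgG was 8 with the compared groups alone. The number lower under the mAb was 3 with median-ratio factors, with quantile normalization and with trimmed-mean factors. The correlation of Cxcr3 with its ligands was -0.124 after centring on treatment groups, and the cause was not tested. When each mouse was left out in turn, 16 to 22 genes were higher and 4 to 6 lower under IgG, 14 to 20 higher and 4 to 7 lower under the mAb, 0 to 7 were called at 0.5 mg and 0 to 2 at 1 mg. No paired analysis was possible because mouse numbers are unique and link no samples. With 3 mice in each IgG group, genes that vary widely between mice, such as the CXCR2 ligands, were at the limit of the test, and TPM values carry no counting error.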
